A study of Mus musculus with 12 samples.

Results

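The mouse mitochondrial genome gives 37 transcripts, and all 37 were members here: every gene in the count table whose symbol starts with mt-, of 55401 genes in all. They comprised 13 messenger RNA genes, 2 ribosomal RNA genes and 22 transfer RNA genes. RNA was taken from peritoneal lavage cells of C57BL/6J mice, in 3 groups of 4 libraries. Mice of the ID8 group had received the mouse ovarian cancer line named ID8 (defb29/Vegf-a) in the labels, and mice of the ID8-FSHR group the same line carrying FSHR, the receptor of follicle-stimulating hormone. Both groups were injected into the peritoneum, and lavage with 8 mL of phosphate-buffered saline followed on day 7. The third group had no injection and is called uninjected. No group received an injection without tumour cells, so tumour cells and injection cannot be told apart. The labels give 5000000 injected cells and the series text 4000000. The sources used here do not give the promoter that drives FSHR, whether the line is a single clone, whether animals were pooled, or the age of the mice. Libraries were made from 100 ng of RNA with a kit that removes ribosomal RNA with probes before sequencing, and probes of that kind usually cover the mitochondrial ribosomal RNAs too.

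Mitochondrial DNA is a small circle that is transcribed from both strands into long RNAs. The transfer RNAs lie between the other genes, and cutting at their ends releases most messenger and ribosomal RNAs. The 13 messenger RNAs code for subunits of the respiratory chain and of ATP synthase, which also need many subunits made from nuclear genes. Most genes are read from a single strand, and mt-Nd6 is the only messenger RNA gene on the other. In the GENCODE annotation, 12 messenger RNA genes, both ribosomal RNA genes and 14 transfer RNA genes lay on the plus strand of GRCm38, and mt-Nd6 and 8 transfer RNA genes on the minus strand.

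Library totals ran from 47419608 to 64333677 counts, and the 3 groups overlapped in depth. Markers of mesothelial cells, which ID8 cells share, were checked first: their summed level was 3072 ± 309.5 CPM (SD, n = 4) in the ID8 group, 1874 ± 651 in the ID8-FSHR group and 19.5 ± 0.817 in the uninjected group. The 10 markers of large peritoneal macrophages summed to 8843 ± 1032, 7779 ± 2007 and 19324 ± 1702 CPM in that order, and the 8 B cell markers to 446 ± 67.0, 424 ± 94.5 and 3180 ± 423 CPM. The cell mixture thus differed between the groups in every comparison with uninjected mice below. It also differed between the tumour groups. The mesothelial markers ranged over 2654 to 3331 CPM in ID8 and 911 to 2344 CPM in ID8-FSHR. The 4 NK cell markers summed to 13.9 ± 7.51 and 73.4 ± 51.2 CPM there, with overlap. The part of the mixture in the results of any comparison below was not tested. In such mixtures fewer cells of a type and less RNA per cell cannot be told apart. ID8-FSHR replicate 2 was closer to the uninjected libraries than other tumour libraries were, with a mean correlation of 0.914 against 0.868 to 0.880. CPM relates a gene's count to the size of its library, here after TMM scaling, which sets that size from the bulk of the genes.

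Messenger RNA genes of the mitochondrial genome took between 2.17% and 2.91% of all counts in each library. Their share of all counts was 2.83%, 2.55%, 2.17% and 2.53% in ID8 replicates 1 to 4, which gives 2.52% ± 0.271 (SD, n = 4). The ID8-FSHR libraries held 2.91%, 2.63%, 2.77% and 2.33%, or 2.66% ± 0.245, and the uninjected libraries 2.39%, 2.53%, 2.59% and 2.62%, or 2.53% ± 0.0995. The 3 groups overlapped throughout, and the tumour groups were more spread than the uninjected group. How close the groups lay depended on the denominator, as described in the section on processing below. Nearly all of these counts came from 7 of the 13 genes. The other 6, described further on, made up 0.0205% of the class counts. The ribosomal RNA genes held far less: 0.0883% ± 0.0114 in the ID8 group (0.0748% to 0.102%), 0.109% ± 0.0181 in the ID8-FSHR group (0.0833% to 0.124%) and 0.109% ± 0.0113 in the uninjected group (0.0945% to 0.121%). These also overlapped. For comparison, cytosolic ribosomal RNA genes held 4.08% ± 0.814, 4.38% ± 1.70 and 3.99% ± 0.153, with the lowest value, 1.98%, in ID8-FSHR replicate 1. Only 3 of the 7 such genes listed were among the counted genes. Nearly all of this share was 1 entry, CT010467.1, with 39070 of the 39077 CPM in ID8. It therefore cannot be read as the whole cytosolic ribosomal RNA content. How far depletion removed the mitochondrial ribosomal RNAs in each library cannot be read from these counts.

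Of the 37 members, 15 passed the filter on low counts and were tested: the 13 messenger and the 2 ribosomal RNA genes. The test was edgeR's quasi-likelihood test over all 12 libraries and 16915 genes, with Benjamini-Hochberg adjustment over those genes and a threshold of 0.05. Between ID8 and uninjected mice 7 of the 15 were called, 1 higher and 6 lower. Among all genes tested 64.1% were called there, 32.7% higher and 31.4% lower. Between ID8-FSHR and uninjected mice 5 were called, 1 higher and 4 lower, where all genes gave 64.5%, with 33.9% higher and 30.6% lower. In both, the called part of the members lay below the share among all genes, and nothing is read from that. Between ID8-FSHR and ID8 mice none of the 15 was called, against 11.6% of all genes (6.04% higher and 5.56% lower). The 2 comparisons with uninjected mice share the same 4 uninjected libraries, so they are not independent of each other. Values without overlap between groups were found for 8 of 15 members in ID8 against uninjected (62.5% of all genes), 6 of 15 in ID8-FSHR against uninjected (57.0%) and 0 of 15 in ID8-FSHR against ID8 (18.5%). The median log2 fold change of the 15 was -0.35, -0.23 and 0.080 in these comparisons, and that of all genes tested was -0.026, 0.00083 and -0.0062. These figures include 6 genes whose counts cannot be read as RNA levels, as described further on. The other 9 tested members had 1 higher and 4 lower in ID8 and 1 higher and 2 lower in ID8-FSHR, with medians of -0.15, -0.13 and 0.080.

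**Figure D1:**
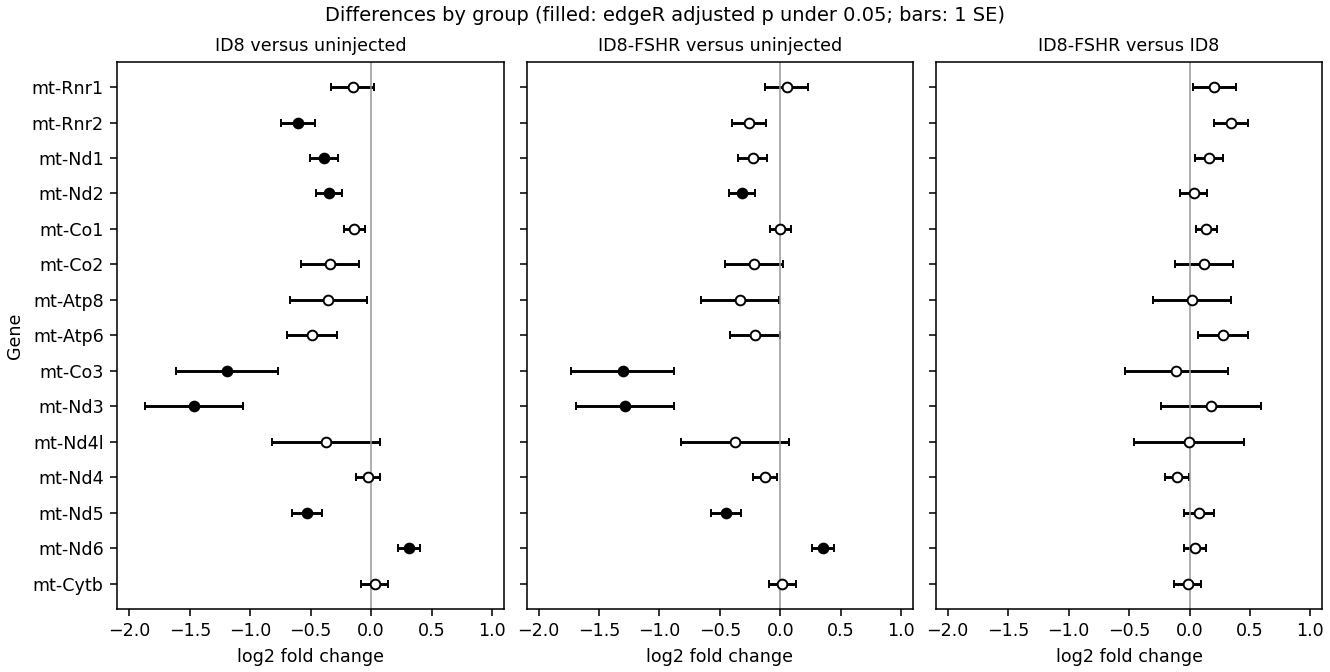
Log2 fold changes of the 15 tested mitochondrial genes (x axis) in the 3 comparisons, in gene order from top to bottom; bars are 1 SE, and filled points passed an adjusted p of 0.05. The mt-Nd6 point lies above 0 in both comparisons with uninjected mice, mt-Nd2, mt-Co3, mt-Nd3 and mt-Nd5 lie below 0 in both, and no point is filled between the tumour groups.

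mt-Nd6 was the only member that rose, and its neighbour mt-Nd5 fell. Both code for subunits of complex I, which takes electrons from NADH. mt-Nd5 lies on the plus strand (GRCm38 chrM:11742-13565) and mt-Nd6 on the minus strand (chrM:13552-14070), and their ends overlap by 14 bases. The last 60 bases of each gene are shown because this is where the opposite strands share sequence; capitals mark the overlap.
mt-Nd5: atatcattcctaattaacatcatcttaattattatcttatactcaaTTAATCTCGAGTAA
mt-Nd6: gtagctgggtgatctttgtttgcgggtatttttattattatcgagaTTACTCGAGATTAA
In ID8 replicates 1 to 4 mt-Nd6 stood at 150.2, 119, 113 and 119 CPM. It reached 129.5, 139, 132 and 116 CPM in the ID8-FSHR libraries and 95.2, 99.6, 109.6 and 99.8 CPM in the uninjected libraries. Every tumour library was above every uninjected library, and ID8 replicate 1 was the highest. The log2 fold change against uninjected was 0.31 (SE 0.091, edgeR adjusted p = 0.00941) for ID8 and 0.35 (SE 0.091, edgeR adjusted p = 0.00429) for ID8-FSHR.

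mt-Nd5 went the other way. It stood at 3533, 3222, 2490 and 2924 CPM in ID8 replicates 1 to 4 and at 3320, 3438, 3572 and 2534 CPM in the ID8-FSHR libraries. The uninjected libraries held 4129, 4310, 4651 and 4481 CPM, all above the tumour libraries. The log2 fold change was -0.53 (SE 0.125, edgeR adjusted p = 0.00238) for ID8 and -0.45 (SE 0.125, edgeR adjusted p = 0.00675) for ID8-FSHR. With total-count scaling the second became -0.26 (adjusted p = 0.0828) and was no longer called.

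A ratio of 2 genes within a library does not depend on the scaling. The mt-Nd6 to mt-Nd5 count ratio was 0.0425, 0.0368, 0.0454 and 0.0408 in the ID8 libraries, and 0.0390, 0.0404, 0.0368 and 0.0459 in the ID8-FSHR libraries. In the uninjected libraries it was 0.0231, 0.0231, 0.0236 and 0.0223. The uninjected group was the tightest and lay wholly below the others. The ratio was 1.79-fold higher in ID8 and 1.76-fold higher in ID8-FSHR than in uninjected mice. A two-sided exact permutation test gave p = 0.0286 for each, the smallest p that 4 against 4 libraries can give. After adjustment over the 9 ratio comparisons this was 0.129, so the difference did not pass the correction. Between the tumour groups the exact p was 0.8. The sources used here do not say how strand was treated in the counting, so reads of mt-Nd6 and reads from the opposite strand of the same stretch cannot be told apart.

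**Figure D2:**
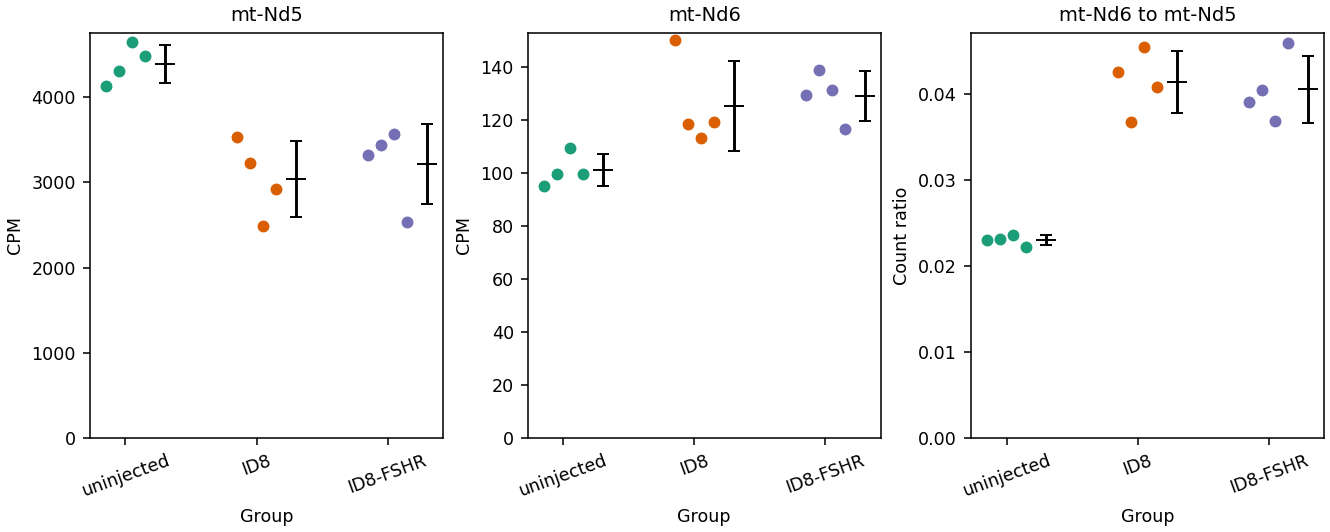
Levels of mt-Nd5 and mt-Nd6 (CPM) and their count ratio in each library by group; the black mark is the mean and its bar 1 SD (n = 4). In the right panel the uninjected libraries sit between 0.0223 and 0.0236 and the tumour libraries between 0.0368 and 0.0459.

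The complex I subunits mt-Nd1 and mt-Nd2 fell in ID8, and mt-Nd2 also fell in ID8-FSHR. mt-Nd1 stood at 2968, 2766, 1941 and 2656 CPM in ID8 replicates 1 to 4, at 2976, 3094, 2901 and 2570 CPM in the ID8-FSHR libraries, and at 3240, 3387, 3534 and 3376 CPM in the uninjected libraries. Every uninjected value exceeded every tumour value. The log2 fold change was -0.39 (SE 0.117, edgeR adjusted p = 0.0107) for ID8, and -0.23 (SE 0.117, adjusted p = 0.102) for ID8-FSHR, which was not called, although it was with only the 2 groups compared (adjusted p = 0.0493) or without ID8 replicate 3 (adjusted p = 0.0281). mt-Nd2 stood at 2478, 2157, 1679 and 2077 CPM in the ID8 libraries, at 2228, 2192, 2298 and 1873 CPM in the ID8-FSHR libraries and at 2526, 2715, 2775 and 2677 CPM in the uninjected libraries. Its groups were likewise separate from the uninjected group, with log2 fold changes of -0.35 (SE 0.110, edgeR adjusted p = 0.0138) for ID8 and -0.32 (SE 0.110, edgeR adjusted p = 0.0231) for ID8-FSHR. With total-count scaling mt-Nd1 in ID8 became -0.20 (adjusted p = 0.149) and mt-Nd2 became -0.16 (adjusted p = 0.228) in ID8 and -0.12 (adjusted p = 0.35) in ID8-FSHR, none called. Without ID8-FSHR replicate 2, the library nearest to the uninjected ones, mt-Nd2 was at -0.23 (adjusted p = 0.0887) in ID8-FSHR, and it was also not called without ID8-FSHR replicate 4 (adjusted p = 0.0734) or uninjected replicate 3 (adjusted p = 0.0581). mt-Nd4 ranged over 1833 to 2342 CPM in ID8, 1643 to 2147 in ID8-FSHR and 2062 to 2194 in uninjected mice and was called in no comparison.

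mt-Co1 and mt-Cytb, the members with the highest levels, were not called in any comparison. mt-Co1, the catalytic core of complex IV, ranged over 8635 to 10395 CPM in ID8, 9781 to 11057 in ID8-FSHR and 10149 to 11255 in uninjected mice. Its log2 fold change against uninjected was -0.14 (95% interval -0.33 to 0.052) in ID8 and 0.00073 (-0.19 to 0.19) in ID8-FSHR. mt-Cytb, the cytochrome b of complex III, ranged over 3756 to 5047, 3729 to 5025 and 4185 to 4621 CPM. Its log2 fold change was 0.031 (-0.21 to 0.27) in ID8 and 0.017 (-0.23 to 0.26) in ID8-FSHR. These intervals come from the SE, which was worked back from edgeR's test statistic, and the degrees of freedom of the fit.

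As parts of the messenger RNA class, the members shifted against each other. mt-Nd5 made up 12.6% ± 0.622 of the class counts in ID8, 12.6% ± 0.878 in ID8-FSHR and 15.8% ± 0.324 in uninjected mice, with no overlap. mt-Cytb made up 18.7% ± 0.308, 17.6% ± 1.14 and 15.9% ± 0.128, and its lowest tumour library, at 16.5%, was above the highest uninjected one, at 16.1%. mt-Nd6 made up 0.520% ± 0.0408, 0.509% ± 0.0221 and 0.365% ± 0.0152. mt-Co1 held the most, at 40.1% ± 1.59, 41.9% ± 1.66 and 38.3% ± 0.807. Such parts sum to the whole class, so a lower part of mt-Nd5 raises the others by arithmetic, and no test was made of them.

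Per kilobase of transcript the members spanned a wide range. In uninjected mice mt-Co1 had the highest level at 6866 ± 331 CPM per kb, followed by mt-Cytb at 3864 ± 175, mt-Nd1 at 3536 ± 126, mt-Nd2 at 2575 ± 102, mt-Nd5 at 2408 ± 123 and mt-Nd4 at 1541 ± 52.2. Then came mt-Rnr2 at 592 ± 73.6, mt-Rnr1 at 265 ± 8.21 and mt-Nd6 at 195 ± 11.7. mt-Cytb and mt-Nd1 overlapped between libraries, as did mt-Nd2 and mt-Nd5, and the other neighbours in that order did not. The order of the first 7 was the same in the tumour groups, where mt-Nd5 overlapped both mt-Nd2 and mt-Nd4, and in ID8 mt-Nd1 overlapped mt-Nd2. mt-Nd6 and mt-Rnr1 overlapped in both tumour groups. Because the kit removes ribosomal RNA, the places of mt-Rnr2 and mt-Rnr1 in this order cannot be read as their levels in the cells. The remaining 6 messenger RNA genes lay between 0.339 and 6.57 CPM per kb over all libraries.

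Those 6 genes, mt-Co2, mt-Atp8, mt-Atp6, mt-Co3, mt-Nd3 and mt-Nd4l, had 5 to 279 counts in every library, while the other 7 messenger RNA genes had 4580 to 702128. Together they made up 0.0205% of the class counts. They are neighbours, and each lies wholly within chrM:6390-11042, a stretch of 4653 bases. On chromosome 1 (chr1:24611535-24616197, minus strand) GENCODE annotates, in the same order, 7 unprocessed pseudogenes of genes in this stretch: Gm29216 for mt-Co1, Gm28661 for mt-Co2, Gm10925 for mt-Atp6, Gm28437 for mt-Co3, Gm28438 for mt-Nd3, Gm10222 for mt-Nd4l and Gm28439 for mt-Nd4. Their transcripts were aligned to those of the members, over 483 of 492 bases for Gm29216 and over their whole annotated length for the other 6. In these alignments 5 of the 7 had 0 mismatches, Gm29216 had 1 (A1066T) and Gm28438 had 1 (T3C), where the member's base comes first and positions count from base 1 of the member's transcript. No annotated copy of mt-Atp8 was found, but the gap between Gm28661 and Gm10925 on chromosome 1 spans 233 bases, as does the gap between their sources on the mitochondrial genome. Between the copies of mt-Nd3 and mt-Nd4l the spacing differed by 1 base. No genome sequence was used, so the bases between the annotated copies, mt-Atp8 and 5 transfer RNA genes among them, were not compared. Only 31.3% of mt-Co1 and 63.6% of mt-Nd4 lies in the stretch, and none of the remaining 7 tested members. Copies elsewhere also match in part: stretches of at least 50 bases identical to an annotated nuclear transcript covered 74.9% of mt-Co1, 63.6% of mt-Nd4, 24.3% of mt-Nd5, 17.2% of mt-Nd2 and 4.11% of mt-Rnr2. They covered none of mt-Rnr1, mt-Nd1, mt-Nd6 or mt-Cytb. The sources used here do not say how reads that match 2 places were counted. The low counts of these 6 genes therefore cannot be read as their RNA levels, and the part of the copies in them, or in the levels of the partly matched genes, was not tested. For mt-Atp8 this caution rests on its place in the stretch alone, since no identical stretch of at least 50 bases was found in it.

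**Figure D3:**
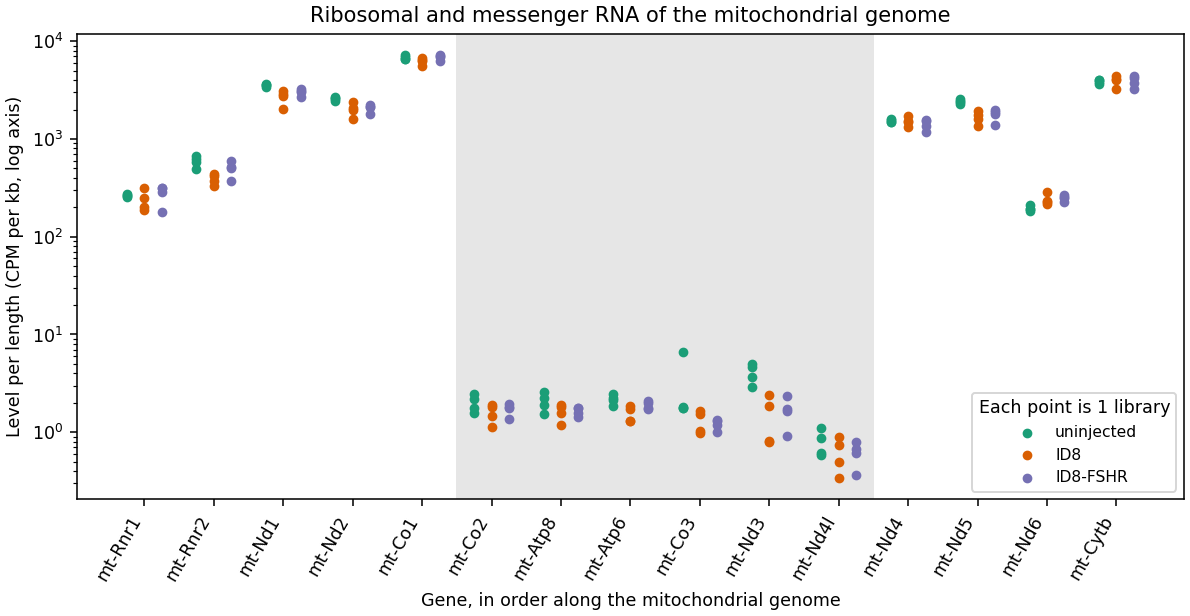
Level per length (CPM per kb, log axis) of the ribosomal and messenger RNA genes in order along the mitochondrial genome; each point is 1 library, and the grey band marks the 6 genes that lie wholly within the stretch whose genes have annotated copies on chromosome 1. Points within the band lie between 0.339 and 6.57, and the lowest of the others at 180.7.

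mt-Nd3, a complex I subunit, and its copy Gm28438 differed between the groups in how their few counts divided. Their first 60 bases are shown because they hold the single difference found between them, in capitals; mt-Nd3 is at chrM:9459-9806 and Gm28438 at chr1:24612775-24613119, minus strand.
mt-Nd3: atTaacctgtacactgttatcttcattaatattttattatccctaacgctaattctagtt
Gm28438: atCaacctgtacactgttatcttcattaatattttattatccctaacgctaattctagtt
In uninjected replicates 1 to 4 mt-Nd3 had 65, 88, 86 and 46 counts and Gm28438 had 13, 2, 6 and 9. In the ID8 libraries mt-Nd3 had 19, 32, 14 and 48 counts and Gm28438 had 48, 19, 20 and 29. In the ID8-FSHR libraries mt-Nd3 had 36, 16, 41 and 33 counts and Gm28438 had 31, 14, 32 and 53. Of the counts on the pair, Gm28438 held 10.5% ± 7.25 in uninjected mice (2.22% to 16.7%), 51.3% ± 16.8 in ID8 mice (37.3% to 71.6%) and 49.6% ± 8.10 in ID8-FSHR mice (43.8% to 61.6%). No tumour library overlapped an uninjected one. Counting error alone was wide: the 95% Wilson interval ran from 0.612% to 7.74% in uninjected replicate 2 and from 25.3% to 51.0% in ID8 replicate 2, and such intervals cover counting error only.

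By edgeR's test the counts assigned to mt-Nd3 were lower, with a log2 fold change of -1.46 (SE 0.408, adjusted p = 0.00687) in ID8 and -1.29 (SE 0.405, adjusted p = 0.0137) in ID8-FSHR. Those assigned to Gm28438 were higher, by 1.71 (SE 0.539, edgeR adjusted p = 0.0137) and 1.96 (SE 0.538, edgeR adjusted p = 0.00638). Neither can be read as a change in the RNA level of its gene. With the counts of each member and its chromosome 1 copy summed, an alternative chosen after the data were seen, mt-Nd3 was at -0.63 (adjusted p = 0.0973) and -0.42 (adjusted p = 0.259), no longer called. In the pairs with no mismatch the group means lay closer together. Gm10925 held 58.8% ± 5.96, 57.2% ± 4.97 and 60.5% ± 4.61 of the counts of its pair with mt-Atp6 in ID8, ID8-FSHR and uninjected mice. Gm28661 held 58.0% ± 3.21, 56.8% ± 8.66 and 56.4% ± 5.47 of its pair with mt-Co2. Gm28437 held 51.0% ± 3.90, 57.8% ± 1.47 and 49.1% ± 4.52 of its pair with mt-Co3. There ID8-FSHR (56.7% to 59.8%) did not overlap uninjected mice (42.6% to 53.0%) either. Gm10222 held 52.4% ± 10.8, 48.5% ± 15.6 and 42.8% ± 18.5 of its pair with mt-Nd4l, which had only 35 to 48 counts on either gene in a group. Gm28439, which matches only part of mt-Nd4, held 0.0493% ± 0.0105, 0.0461% ± 0.00864 and 0.0447% ± 0.00705 of that pair. In the other pair with 1 mismatch, mt-Co1 and Gm29216, the copy held 0.0124% ± 0.00248, 0.0109% ± 0.000976 and 0.0103% ± 0.000693. These shares are a description and were not tested, nor was the part of the mismatches in them. The base at this position was read from the reference only, and no reads were analysed here.

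**Figure D4:**
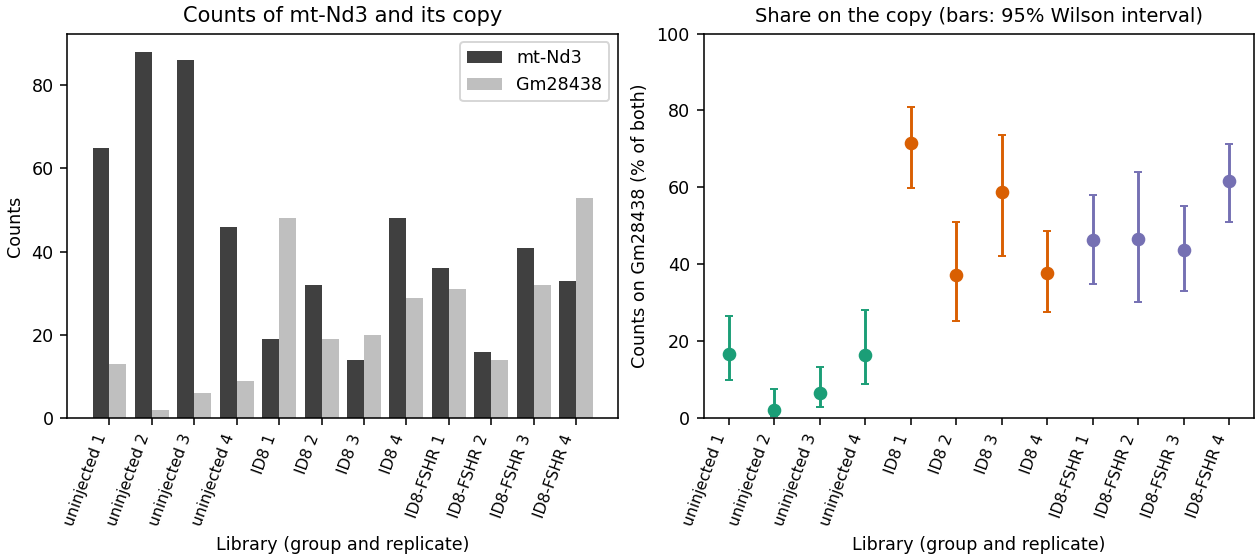
Counts of mt-Nd3 and its chromosome 1 copy Gm28438 in each library (left), and the percent of both on Gm28438 with 95% Wilson intervals (right). The uninjected libraries lie between 2.22% and 16.7% and the tumour libraries between 37.3% and 71.6%.

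mt-Co3, a core subunit of complex IV, was called lower in both tumour groups, and the calls rested on few libraries. It stood at 1.20, 0.806, 0.777 and 1.30 CPM in ID8 replicates 1 to 4, at 1.03, 0.935, 1.04 and 0.785 CPM in the ID8-FSHR libraries, and at 1.38, 5.15, 1.43 and 1.39 CPM in the uninjected libraries. Uninjected replicate 2 had 279 counts on mt-Co3 and 207 on its copy Gm28437, against 64 to 71 and 66 to 79 in the other uninjected libraries. The log2 fold change was -1.20 (SE 0.421, edgeR adjusted p = 0.0242) in ID8 and -1.30 (SE 0.423, edgeR adjusted p = 0.0161) in ID8-FSHR. Without uninjected replicate 2 it was -0.46 (adjusted p = 0.143) and -0.56 (adjusted p = 0.0752), neither called, although the remaining groups still did not overlap. The ID8 call was also lost without ID8 replicate 2 (-1.10, edgeR adjusted p = 0.0627) or replicate 3 (-1.08, edgeR adjusted p = 0.0649), whose values of mt-Co3 were the lowest of that group. It was lost as well with total counts in place of TMM scaling (-1.02, adjusted p = 0.0526), with limma-voom (-0.97, adjusted p = 0.0599), with only the 2 groups compared (-1.12, adjusted p = 0.0516) and with a replicate block (-1.0, adjusted p = 0.0686).

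The ATP synthase members mt-Atp6 and mt-Atp8 and the complex IV member mt-Co2 were called in no comparison. mt-Atp8 and mt-Atp6 share 43 bases, read in different frames. The whole mt-Atp8 transcript (chrM:7766-7969, plus strand) is shown for that overlap, which is in capitals.
mt-Atp8: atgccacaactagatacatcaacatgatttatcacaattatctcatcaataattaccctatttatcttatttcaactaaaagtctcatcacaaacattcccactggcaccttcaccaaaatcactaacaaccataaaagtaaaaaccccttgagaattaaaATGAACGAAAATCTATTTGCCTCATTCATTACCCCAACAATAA
mt-Atp6 ranged over 0.888 to 1.26 CPM in ID8, 1.17 to 1.41 in ID8-FSHR and 1.26 to 1.68 in uninjected mice. ID8 and uninjected values did not overlap, and the log2 fold change of -0.49 (SE 0.207) had an edgeR adjusted p of 0.0529. Summed with Gm10925, mt-Atp6 was at -0.56 (adjusted p = 0.00495) in ID8, which passed. It also passed with a filter of 1 CPM in 4 libraries (adjusted p = 0.0358), with limma-voom (adjusted p = 0.0438), and without ID8 replicate 4 (edgeR adjusted p = 0.0428) or uninjected replicate 4 (edgeR adjusted p = 0.0485). mt-Atp8 ranged over 0.242 to 0.385, 0.292 to 0.364 and 0.314 to 0.533 CPM, mt-Co2 over 0.777 to 1.29, 0.933 to 1.32 and 1.09 to 1.68, and mt-Nd4l, a small complex I subunit, over 0.101 to 0.263, 0.110 to 0.237 and 0.174 to 0.332. All 3 overlapped between the groups, with 5 to 87 counts a library.

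Some messenger RNAs of this genome start with codons that nuclear genes do not usually use. The annotated messenger RNAs begin with ATG in 9 genes, ATA in mt-Nd2, ATC in mt-Nd5, ATT in mt-Nd3 and GTG in mt-Nd1. In 3 genes, mt-Co3, mt-Nd4 and mt-Cytb, the annotated transcript ends 1 base past its last whole codon, where the stop codon is completed by the poly(A) tail.

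The ribosomal RNAs form the core of the mitochondrial ribosome: mt-Rnr1 the small and mt-Rnr2 the large subunit. mt-Rnr2 (chrM:1094-2675) stood at 668, 692, 528 and 581 CPM in ID8 replicates 1 to 4. It stood at 586, 935, 794 and 823 CPM in the ID8-FSHR libraries and at 783, 1050.2, 999 and 917 CPM in the uninjected libraries. ID8 lay wholly below the uninjected group, and ID8-FSHR overlapped both. mt-Rnr2 fell in ID8 by 0.60 on the log2 scale (SE 0.141, edgeR adjusted p = 0.00223), a call kept under every alternative run. In ID8-FSHR the log2 fold change was -0.26 (SE 0.141, adjusted p = 0.127), not called. None of the alternatives deals with the removal of ribosomal RNA, and its part in the mt-Rnr2 and mt-Rnr1 values was not tested.

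mt-Rnr1 (chrM:70-1024) was called in no comparison. It stood at 300.4, 194, 179 and 239 CPM in ID8, at 173, 299, 277 and 303 CPM in ID8-FSHR and at 263, 249, 245 and 257 CPM in uninjected mice, and the uninjected values lay inside the range of each tumour group. The mt-Rnr2 to mt-Rnr1 count ratio was 2.79 ± 0.597 in ID8, 3.03 ± 0.300 in ID8-FSHR and 3.71 ± 0.559 in uninjected mice (SD, n = 4), with overlap. The two-sided exact permutation p was 0.0571 for ID8 and 0.0857 for ID8-FSHR against uninjected, or 0.171 and 0.193 after adjustment over the 9 ratio comparisons. The mt-Rnr2 to mt-Nd1 count ratio, between a ribosomal RNA and the messenger RNA that follows it along the strand, was 0.241 ± 0.0243, 0.273 ± 0.0543 and 0.277 ± 0.0283. Its exact permutation p was 0.143 for ID8 and 0.886 for ID8-FSHR against uninjected.

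Between the 2 tumour groups no member passed the threshold in edgeR's test, and 1 of 15 had an unadjusted p under 0.05. That was mt-Rnr2, with a log2 fold change of 0.35 in ID8-FSHR over ID8 (SE 0.141, 95% interval 0.042 to 0.65, unadjusted p = 0.0289, edgeR adjusted p = 0.126). Without ID8-FSHR replicate 1, the lowest of its group, it was 0.46 (adjusted p = 0.0206) and was called. ID8-FSHR replicate 1 also had the lowest cytosolic ribosomal RNA share. For mt-Nd6 the difference was 0.043 (95% interval -0.15 to 0.24), for mt-Nd5 0.080 (-0.19 to 0.35), for mt-Nd1 0.16 (-0.094 to 0.41) and for mt-Nd2 0.034 (-0.20 to 0.27). These intervals leave room for differences in either direction. DESeq2 and limma-voom also called 0 of the members here. Malat1, a nuclear-retained RNA, was at 0.414% ± 0.0341, 0.198% ± 0.0240 and 0.215% ± 0.0370 of counts in ID8, ID8-FSHR and uninjected mice. Such RNAs did not move together. In ID8 against uninjected mice Malat1 was higher, at 0.75 (SE 0.123, edgeR adjusted p = 0.000141). Neat1, also nuclear-retained, was lower there, at -0.85 (SE 0.206, edgeR adjusted p = 0.00281). The part of these RNAs in any result above was not tested.

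The transfer RNA genes were almost without counts. Of 22 genes, 13 had 0 counts in all 12 libraries. The other 9 (mt-Tf, mt-Tv, mt-Tl1, mt-Ti, mt-Tq, mt-Tm, mt-Te, mt-Tt and mt-Tp) had 38 counts in all, spread over 8 libraries with 2 to 10 each. The transcripts are 59 to 75 bases long. Those with the most counts are shown with their sequences as examples of this length: mt-Tl1 (chrM:2676-2750), which carries leucine and lies between mt-Rnr2 and mt-Nd1, had 14 counts over 4 libraries, and mt-Tm (chrM:3845-3913), which carries methionine, had 6 over 2.
mt-Tl1: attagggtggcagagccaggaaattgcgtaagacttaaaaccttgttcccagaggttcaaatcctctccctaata
mt-Tm: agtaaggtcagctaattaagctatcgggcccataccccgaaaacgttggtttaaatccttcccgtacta
A count of 0 allows up to 3 counts, which is 0.0444 to 0.0654 CPM at these depths, so no difference between groups was detectable. All 13 values above 0 were even, either 2 or 4. Among all genes 75.8% of the 59325 values from 1 to 10 were even. The sources used here do not say whether both ends of a read pair were counted.

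Nuclear genes for subunits of the same complexes and of complex II were counted from lists of known members. Of 75 nuclear subunits of complexes I to IV and ATP synthase tested, 44 were higher and 2 lower in ID8 than in uninjected mice by edgeR's test, and 61 were higher and 1 lower in ID8-FSHR. That is 58.7% and 81.3% higher, where 32.7% and 33.9% of all genes were. With total counts in place of TMM factors 64 and 70 of the 75 were higher and 0 lower, where 40.8% and 42.0% of all genes were higher and 22.5% and 21.7% lower. Without ID8-FSHR replicate 2 there were 56 higher and 1 lower in ID8 and 65 higher and 1 lower in ID8-FSHR. Among all genes 36.2% and 37.3% were then higher and 27.5% and 27% lower. These alternatives for the nuclear lists were chosen after the data were seen. Complex I had 21 higher and 1 lower of 36 in ID8 and 29 higher of 36 in ID8-FSHR. Ndufb9, an accessory subunit, rose by 1.45 on the log2 scale (SE 0.121, adjusted p = 3.61e-07) in ID8, from 22.0 ± 3.06 to 59.9 ± 3.37 CPM. Complex III had 5 higher and 1 lower of 9 in ID8, and 7 higher and 1 lower in ID8-FSHR. Cyc1, its cytochrome c1, rose by 0.79 (SE 0.069) in ID8 and 1.01 (SE 0.069) in ID8-FSHR, with adjusted p values of 4.86e-07 and 5.8e-08. Complex IV had 8 and 9 higher of 10, and ATP synthase 8 and 12 higher of 16. Cox6c, a small complex IV subunit, rose by 1.20 (SE 0.086, adjusted p = 8.66e-08) in ID8. The lists were chosen with earlier results of these data known, so the counts describe them and support no claim about the lists.

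The summed nuclear messenger RNAs separated the uninjected from the tumour libraries, while the summed mitochondrial ones overlapped. The 75 nuclear subunits summed to 5230 ± 308 CPM in ID8, 5842 ± 395 in ID8-FSHR and 4212 ± 188 in uninjected mice. The 13 mitochondrial messenger RNA genes summed to 24092 ± 2682, 25412 ± 2128 and 27711 ± 1103 CPM on the TMM scale; the highest ID8 library was at 26920 and the lowest uninjected library at 26493. Mitochondrial over nuclear, a quantity free of scaling, was 4.60 ± 0.321 (4.27 to 5.02) in ID8, 4.38 ± 0.596 (3.62 to 4.99) in ID8-FSHR and 6.59 ± 0.409 (6.01 to 6.94) in uninjected mice. The uninjected libraries were all above the tumour libraries, and no test was made because the sums run over chosen lists. The mitochondrial sum rests almost wholly on 7 of the 13 genes, because the other 6 held 0.0205% of the class counts.

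**Figure D5:**
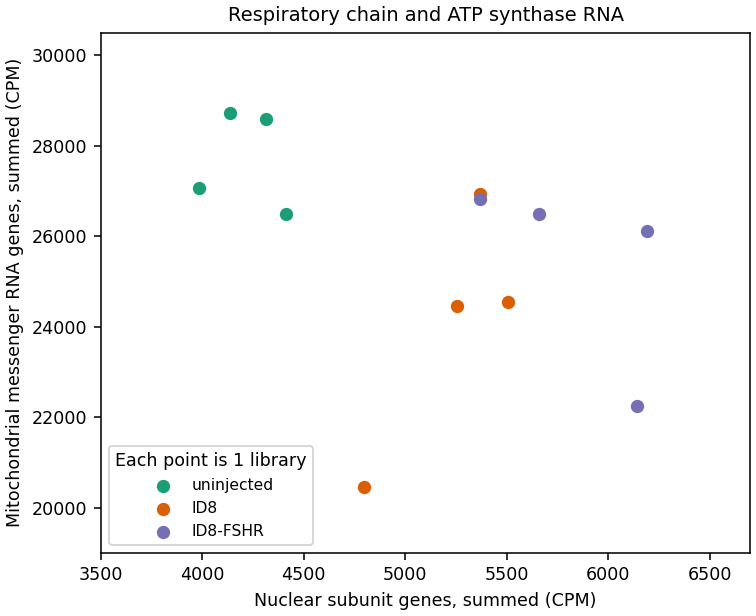
Summed level of 75 nuclear subunit genes (x axis, CPM) against the 13 mitochondrial messenger RNA genes (y axis, CPM) in each library; neither axis starts at 0. The 4 uninjected libraries have the lowest nuclear sums, 3985 to 4410, and the tumour libraries lie at 4795 to 6190.

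Nuclear genes that make and handle mitochondrial RNA held calls in both directions, as all genes did (32.7% higher and 31.4% lower in ID8, 33.9% and 30.6% in ID8-FSHR), and the counts are read as no property of these lists. Of 11 genes for mitochondrial transcription, 4 were higher and 1 lower in ID8, and 4 higher and 2 lower in ID8-FSHR. Tefm, the elongation factor, rose by 0.68 (SE 0.108, edgeR adjusted p = 0.00011) and 0.39 (SE 0.108, adjusted p = 0.0061). Polrmt, the polymerase, fell by 0.32 (SE 0.085, edgeR adjusted p = 0.00526) in ID8-FSHR and was also lower there than in ID8, by -0.29 (adjusted p = 0.0426). Of 19 genes for RNA processing and decay, 6 were higher and 3 lower in ID8, and 7 higher and 5 lower in ID8-FSHR. Mtpap, which adds poly(A) tails in mitochondria, fell by 0.41 (SE 0.073, adjusted p = 0.000305) in ID8, and Slirp, which stabilises the messenger RNAs, rose by 0.65 (SE 0.138, adjusted p = 0.00116) in ID8-FSHR. Trmt10c, a subunit of the enzyme that cuts the 5′ ends of the transfer RNAs, fell by 0.50 (SE 0.117, edgeR adjusted p = 0.00231) in ID8-FSHR. Scaling moves these counts: with total counts in place of TMM factors, transcription had 6 higher and 0 lower in ID8 and 5 higher and 0 lower in ID8-FSHR, and processing and decay had 10 higher and 2 lower, and 11 higher and 2 lower. Polrmt was then at -0.13 (edgeR adjusted p = 0.226) against uninjected mice and at -0.29 (edgeR adjusted p = 0.051) against ID8, neither called. With ID8-FSHR replicate 2 left out, transcription had 5 higher and 0 lower in ID8 and 4 higher and 1 lower in ID8-FSHR, and processing and decay 9 higher and 3 lower, and 9 higher and 4 lower. The shares of all genes moved too. With total counts 40.8% and 42% were higher and 22.5% and 21.7% lower. With that library left out 36.2% and 37.3% were higher and 27.5% and 27% lower.

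Lists for the mitochondrial ribosome and for transfer RNA enzymes were counted the same way, and the differences between the lists were not tested. Among all genes 32.7% were higher and 31.4% lower in ID8, and 33.9% and 30.6% in ID8-FSHR. With total counts these shares were 40.8% and 22.5%, and 42% and 21.7%. Without ID8-FSHR replicate 2 they were 36.2% and 27.5%, and 37.3% and 27%. The counts are read as no property of these lists. Of 77 mitochondrial ribosomal protein genes tested, 37 were higher and 3 lower in ID8, and 48 higher and 2 lower in ID8-FSHR; Mrpl13 rose by 1.21 (SE 0.093) and 1.33 (SE 0.093), with edgeR adjusted p values of 1.56e-07 and 7.09e-08. Without ID8-FSHR replicate 2 the ribosomal protein counts were 47 higher and 3 lower, and 54 higher and 1 lower, and with total counts 56 and 65 higher and 0 lower. Transfer RNA maturation had 1 higher and 4 lower of 17 in ID8, and 0 higher and 5 lower in ID8-FSHR. That direction did not hold under the alternatives: with total counts the list had 2 higher and 0 lower in ID8 and 3 higher and 0 lower in ID8-FSHR, and with ID8-FSHR replicate 2 left out 1 higher and 2 lower, and 2 higher and 1 lower. The aminoacyl-tRNA synthetases had 6 higher and 7 lower of 22, and 6 higher and 5 lower, against 10 higher and 3 lower, and 9 higher and 3 lower, with total counts. Mars2, which loads methionine onto its mitochondrial transfer RNA, fell by 1.13 (SE 0.135, adjusted p = 8.71e-06) in ID8 and 1.33 (SE 0.135, adjusted p = 2.1e-06) in ID8-FSHR. Ears2, which loads glutamate, rose by 0.96 (SE 0.168, adjusted p = 0.000256) and 1.07 (SE 0.168, adjusted p = 0.000104).

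Of 20 genes that copy and keep mitochondrial DNA, 7 were higher and 7 lower in ID8, and 6 higher and 8 lower in ID8-FSHR, where 32.7% and 33.9% of all genes were higher and 31.4% and 30.6% lower. Polg, the DNA polymerase, fell by 0.58 (SE 0.060, edgeR adjusted p = 2.18e-06) in ID8 and 0.60 (SE 0.060, adjusted p = 1.7e-06) in ID8-FSHR. Tk2, a thymidine kinase that supplies its building blocks, fell by 1.02 (SE 0.086) and 1.27 (SE 0.086), with adjusted p values of 3.57e-07 and 5.7e-08. Among 8 regulators of mitochondrial biogenesis, 1 was higher and 3 lower in each comparison. With total counts the DNA list had 8 higher and 4 lower in ID8 and 6 higher and 2 lower in ID8-FSHR, and the regulators 1 higher and 1 lower, and 2 higher and 1 lower. Among all genes 40.8% and 42% were then higher and 22.5% and 21.7% lower. With ID8-FSHR replicate 2 left out the regulators had 1 higher and 1 lower in ID8, and 1 higher and 2 lower in ID8-FSHR. All genes then had 36.2% and 37.3% higher and 27.5% and 27% lower. With TMM factors and all libraries the regulator that rose was Ppargc1a, the coactivator PGC-1alpha, from 0.664 ± 0.140 CPM in uninjected mice to 4.28 ± 0.489 in ID8 and 2.50 ± 0.585 in ID8-FSHR, with log2 fold changes of 2.68 (SE 0.23, edgeR adjusted p = 4.44e-07) and 1.91 (SE 0.227, adjusted p = 8.93e-06). It was also lower in ID8-FSHR than in ID8, by -0.77 (SE 0.211, adjusted p = 0.0341). With ID8-FSHR replicate 2 left out Ppargc1a was at -0.69 (edgeR adjusted p = 0.0761), not called.

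Over the 12 libraries the genes outside the mitochondrial genome whose log2 CPM followed the mean of the 13 messenger RNA genes most closely were Marchf7 (Pearson r = 0.938), Zfp263 (0.917), Hnrnpr (0.913), Wars2 (0.913) and Cdhr2 (0.911). That mean gives each of the 13 genes equal weight. It thus includes the 6 genes whose counts cannot be read as RNA levels, and their part in the ranking was not tested. These are the highest correlations of all genes tested, the libraries fall into groups, and the values are a description.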

How the data were processed

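RNA sequencing of 12 peritoneal lavage libraries was deposited as raw counts per gene. Per the submitters' processing notes the authors used bcl2fastq 2.20, STAR 2.7.9a, featureCounts and Subread 1.6.4 with GRCm38.p6; the sources used here do not give the strand setting, the treatment of reads with several matches or the release of the annotation. The deposited counts of 55401 genes were used unchanged. The groups and replicate numbers come from the labels; the series text calls the replicates biological, so p-values measure the spread between these libraries. Members were the symbols starting with mt-. Members, lists and named genes (in each list up to 3 called genes of smallest adjusted p and those at either end of the fold change) were chosen with earlier results of these data known. Main test: edgeR 4.0.16 (R 4.3.3), TMM scaling, filterByExpr with a minimum count of 10, group as the only term, robust quasi-likelihood, Benjamini-Hochberg over 16915 genes. The SE of each edgeR log2 fold change is its absolute value divided by the square root of edgeR's F statistic. Ratios were tested by exact permutation (9 tests). Class shares and list sums were not tested. The correlation with the messenger RNA mean used log2(CPM + 0.5). Copies in the nuclear genome were sought with BLAST 2.17.0 among GENCODE M21 transcripts (at least 90% identity over 200 bases), since no genome sequence was used here; all 37 member IDs and versions matched that release, which also supplied the printed sequences. Counts limit the precision: 3 counts are 0.0444 to 0.0654 CPM. The script was tested on simulated counts. Alternatives were DESeq2 1.42.0, limma-voom 3.58.1, other scalings and filters, a replicate block, only the groups compared, and each library left out.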

Additional observations from a re-analysis of the deposited data

Results flagged for a closer look

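Of 63 groups of 4 values examined, 3 held a library whose gap to the nearest other was large for its group by Dixon's test, where chance would give about 3.15. The first is mt-Co3 in uninjected replicate 2, at 5.15 CPM where the other uninjected libraries lay at 1.38 to 1.43; its chromosome 1 copy Gm28437 was also highest there. The second is mt-Nd6 in ID8 replicate 1, at 150.2 CPM against 113 to 119 in the other ID8 libraries. The third is the part of the mt-Nd3 and Gm28438 counts on Gm28438 in ID8-FSHR replicate 4, at 61.6% against 43.8% to 46.7% in the others of that group.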

How the results depend on the processing

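Total counts without a scaling factor moved the median of all genes to 0.17 (ID8) and 0.20 (ID8-FSHR) against uninjected, and the higher part of all calls from 51.0% to 64.5% and from 52.6% to 65.9%. Members called then were 4 (3 lower) and 3 (2 lower), and mt-Rnr1 (0.041), mt-Co1 (0.055) and mt-Nd4 (0.17) in ID8 and mt-Nd4 (0.069) in ID8-FSHR turned positive. Small fold changes also changed sign elsewhere, none of them called: in ID8 mt-Nd4 with DESeq2 and with median-of-ratios scaling (0.032 each) and with only the groups compared (0.052); in ID8-FSHR mt-Co1 (-0.025) and mt-Cytb (-0.0082) with a filter of 1 CPM; between the tumour groups mt-Nd4l with limma-voom (0.032) and only the groups compared (0.012), mt-Cytb (0.0036) with the latter, and mt-Co3 (0.11) with copies summed. The filter of 1 CPM in 4 libraries left mt-Atp8, mt-Nd3 and mt-Nd4l untested. Leaving out 1 library at a time gave 6 to 8, 4 to 6 and 0 to 1 members called in the 3 comparisons (1 higher between the tumour groups, without ID8-FSHR replicate 1), and 961 to 3136 of all genes between the tumour groups, where DESeq2 called 3131. The log2 fold changes that changed sign ranged from -0.024 to 0.12 (mt-Cytb) and -0.084 to 0.058 (mt-Nd4) in ID8, and from -0.039 to 0.13 (mt-Cytb), -0.019 to 0.081 (mt-Co1) and -0.020 to 0.21 (mt-Rnr1) in ID8-FSHR. Between the tumour groups they ranged from -0.033 to 0.53 (mt-Nd3), -0.092 to 0.065 (mt-Cytb), -0.098 to 0.11 (mt-Atp8), -0.059 to 0.13 (mt-Nd2), -0.0057 to 0.22 (mt-Co2), -0.20 to 0.22 (mt-Nd4l), -0.0045 to 0.18 (mt-Nd5), -0.0025 to 0.14 (mt-Nd6) and -0.22 to 0.026 (mt-Co3). mt-Nd6 in both tumour groups and mt-Rnr2 and mt-Nd5 in ID8 kept their calls under every alternative run. The cause of these changes was not tested.

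On log2 ratios, leaving out 1 library turned mt-Nd6 to mt-Nd5 between the tumour groups (-0.092 to 0.017) and mt-Rnr2 to mt-Nd1 in ID8-FSHR against uninjected (-0.12 to 0.11); with 3 against 4 libraries the smallest exact p is 0.0571. As a share of counts without ribosomal RNA genes, messenger RNA in uninjected mice was 2.64%. Without the 10 most abundant nuclear genes in the total it was 2.79%, 2.92% and 2.97% in ID8, ID8-FSHR and uninjected mice, and the ribosomal share in uninjected mice 0.128%. Of effective library size messenger RNA was 2.41% in ID8, 2.54% in ID8-FSHR and 2.77% in uninjected mice, so how close the groups lay depended on the denominator.

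Correlations between same-numbered libraries of different groups took both signs: 12 ran from -0.22 to 0.35, with 2 over 0.1. The 36 between differently numbered libraries ran from -0.33 to 0.33, with 4 over 0.1. Titles of some ID8-FSHR libraries carry other numbers than their replicate labels, which were used here. A replicate block gave 6, 5 and 0 members called; mt-Co3 in ID8 was at -1.0 (adjusted p = 0.0686). The paired exact test of ratios over 4 pairs cannot go below 0.125.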

Other observations

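Copies of mitochondrial genes on other chromosomes than chromosome 1 differ from the members at more bases and have rows of their own in the table, but the handling of reads that match both is not stated. Of 15 annotated nuclear copies of 11 members, all 15 were in the table. The search asked for at least 200 aligned bases, so it could not find copies of the transfer RNA genes, of 59 to 75 bases. A copy of mt-Atp8, of 204 bases, could be found only if nearly whole. Gm13341, a copy of mt-Co2 on chromosome 2 (chr2:22587291-22587962, minus strand, 95.9% identical), had 34 to 65 counts in ID8, 109 to 201 in ID8-FSHR and 61 to 130 in uninjected libraries. It was lower in ID8 than in uninjected mice, at a log2 difference of -1.02 (SE 0.272) and an edgeR adjusted p of 0.00515, and higher in ID8-FSHR than in ID8, by 1.50 (SE 0.272, edgeR adjusted p = 0.00389). Its neighbour Gm13340, a copy of mt-Co1 (97.6% identical), was called in no comparison. Gm13341 was chosen for mention after its values were seen.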
